A study of Homo sapiens with 8 samples.

Results

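Gene expression after loss of the splicing factor SF3B2 was compared with expression in control cells of PC3, an established human prostate cancer line, with all genes of the deposited table taken as members. The comparison rested on 4 of the 8 libraries of the series, and 16046 of the 17010 genes in the table passed the filter on low counts and were tested. PC3 cells were reverse transfected in 3D culture, in 24-well EZ-BindShut plates with 1 mL of medium and 3% serum, and were kept for 72 h. The 2 SF3B2 siRNA libraries came from cells given small interfering RNA (siRNA) against SF3B2, and the 2 control siRNA libraries from cells given a control siRNA. The other 4 libraries of the series came from cells with the SF3b inhibitor pladienolide B or with its vehicle dimethyl sulfoxide (DMSO). They entered the tests only in an alternative fit of all 8 libraries. Levels in the DMSO libraries are also shown without a comparison. The table lists only genes with a read in every library of the series, so these libraries also bear on which genes were tested. The sources used here give neither the siRNA sequences nor whether 1 or several siRNAs were used per target. Since no label ties the 2 libraries of a group to separate cultures, the p-values reflect the spread between these libraries alone, and that spread may be technical.

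The SF3B2 protein belongs to SF3b, which as a component of the U2 snRNP, an RNA-protein particle, holds the branch point of an intron before splicing starts. SF3B1 forms the body of SF3b, PHF5A sits beside the branch point adenosine, and the neighbouring SF3a complex ties SF3b to the rest of U2. Interferons are secreted signals of infection that act through JAK kinases and transcription factors of the STAT and IRF families. Complexes of these factors bind the interferon-stimulated response element in the promoters of antiviral genes.

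Libraries held 61863787 and 48246180 counts with SF3B2 siRNA, and 51661299 and 57417980 counts with control siRNA. Ribosomal RNA genes took 4.29% and 2.38% of counts with SF3B2 siRNA, and 3.48% and 3.62% with control siRNA. Between replicates, the absolute log2 ratio had a median of 0.28 with SF3B2 siRNA and 0.15 with control siRNA, so the SF3B2 siRNA pair was the less alike. The epithelial keratin genes KRT8, KRT18 and KRT19, VIM, CD44 and PLAU were listed in all libraries, as known for PC3. KLK3 and KLK2, markers of differentiated prostate epithelium, were not listed, and the table lists only genes with at least 1 read in every library of the series. Of other cell types 4 of 13 stromal, 2 of 9 endothelial, 4 of 14 leukocyte and 3 of 11 neural markers were listed, and PTPRC, CD3D, CDH5, VWF, DCN and PDGFRA were not.

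SF3B2 itself fell with its siRNA. Its level was 41.7 and 34.3 CPM with SF3B2 siRNA, against 260.9 and 260.2 CPM with control siRNA. CPM are counts relative to library size, scaled by the trimmed mean of M values (TMM) over these 4 libraries, and are not corrected for gene length. The groups stood far apart, with means of 38.0 ± 5.25 CPM with SF3B2 siRNA and 260.6 ± 0.553 CPM with control siRNA (SD, n = 2 each), a 6.86-fold lower level. The log2 fold change was −2.78 ± 0.18 (SE), with adjusted p = 0.0288 by edgeR's quasi-likelihood test with Benjamini-Hochberg adjustment over 16046 genes. By DESeq2 the adjusted p was 5.66e-35. Over the alternatives of edgeR and DESeq2 together the adjusted p ran from 8.05e-65 to 0.0513, the latter by edgeR with all 8 libraries. The gene has 22 exons and lies at chr11:66052364-66069308, plus strand, in GRCh38.

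The partners of SF3B2 kept levels near those of the control. SF3B1, the target of several splicing inhibitors, had 280.8 and 389.1 CPM with SF3B2 siRNA, against 373.9 and 393.4 CPM with control siRNA. SF3B3, which with SF3B1 builds the core, had 132.8 and 146.0 CPM with SF3B2 siRNA, against 117.3 and 122.8 CPM with control siRNA. SF3B4, which binds SF3B2 directly, had 79.0 and 62.6 CPM with SF3B2 siRNA, against 79.0 and 66.3 CPM with control siRNA. Of these only SF3B3 had groups that did not overlap, with a log2 fold change of 0.21 ± 0.15. Over the 9 SF3b genes, DDX42 and DDX46 included, SF3B2 was the only one called by edgeR or DESeq2, and the other 8 had log2 fold changes between −0.20 and 0.25. With SF3B2 siRNA replicate 1 left out, SF3B1 had 0.02 in place of −0.20. Of 17 SF3a and other U2 snRNP genes 0 were called by either tool and 1 had an unadjusted p under 0.05. Of 48 other spliceosome genes 0 were called by either tool, and 3 lay higher at an unadjusted p under 0.05, the Sm and LSm genes LSM3, SNRPD1 and LSM5 (0.52 ± 0.19, 0.46 ± 0.18 and 0.41 ± 0.17). Of 42 genes of SR proteins and hnRNPs, which steer splice site choice, 0 were called and 0 had an unadjusted p under 0.05.

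**Figure D1:**
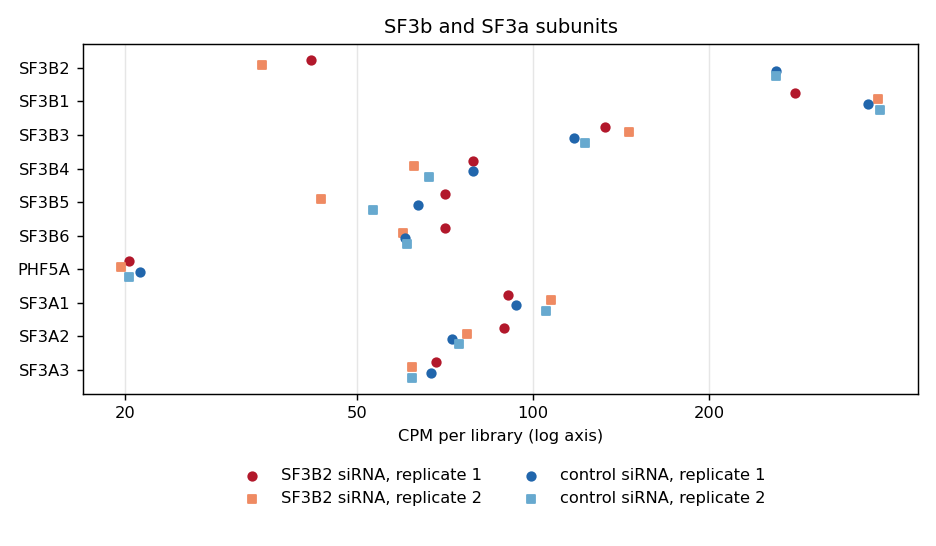
Level of each SF3b and SF3a subunit gene in each library, in CPM on a log axis, with 1 point per library and a colour and shape for each library as in the legend. SF3B2 lies at 41.7 and 34.3 CPM with SF3B2 siRNA, against 260.9 and 260.2 CPM with control siRNA, while the other 9 genes differ much less between the groups.

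Across the transcriptome edgeR called 1 gene, SF3B2, which is 0.00623% of those tested, at an adjusted p under 0.05. An unadjusted p under 0.05 was reached by 778 lower genes (4.85%) and by 586 higher genes (3.65%). DESeq2, run on the same 4 libraries, called 178 genes lower (1.20% of 14801) and 42 higher (0.284%). The calls below are those of DESeq2 and none but SF3B2 passed edgeR, so they are described as lower or higher and not as changed. All 220 had groups that did not overlap, 106 lower genes had a log2 fold change of −1 or less, and 26 higher genes one of 1 or more. Of the 220 genes 209 were protein coding and 11 were long non-coding RNA (lncRNA) genes. Among all genes tested the 2 SF3B2 siRNA libraries both lay below both control siRNA libraries for 3131 genes (19.5%) and both above for 3157 (19.7%).

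Single libraries moved these counts. Without SF3B2 siRNA replicate 1 edgeR called 215 genes and DESeq2 351, and without SF3B2 siRNA replicate 2 they called 1133 and 972. Without control siRNA replicate 1 they called 86 and 57, and without control siRNA replicate 2 they called 45 and 19. In such fits the lone library is assumed to vary like the other pair. DESeq2 called 10 genes in the fit of 4 libraries and in each of these 4 fits. They were SF3B2, PRSS35, TAF13, SARAF, TMEM30A, GBP1, RSAD2, SAMD9L and LAMP3, all lower, and LINC00261, higher.

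**Figure D2:**
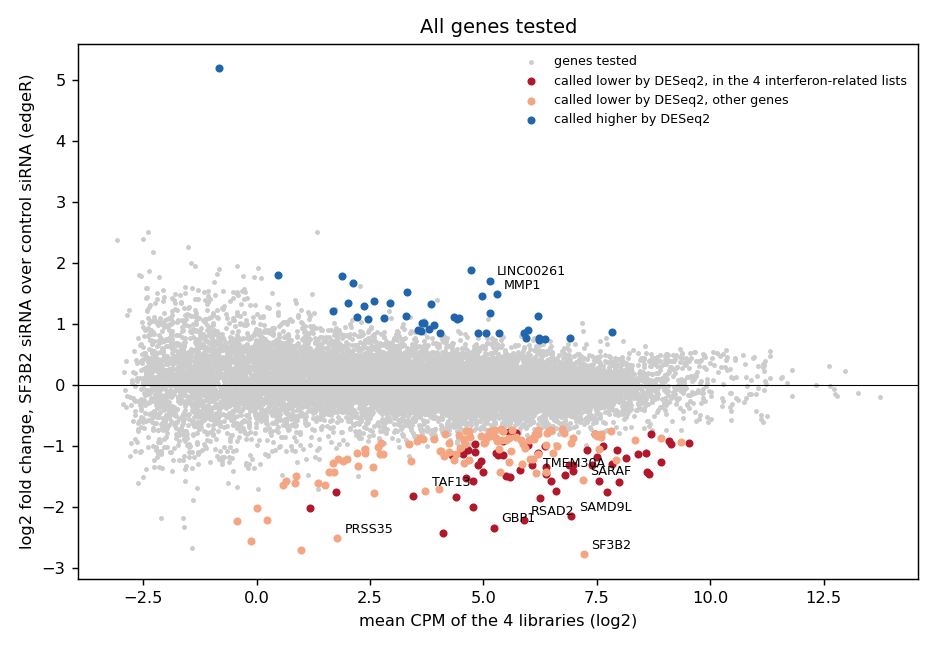
Log2 fold change of SF3B2 siRNA over control siRNA by edgeR against the mean CPM of the 4 libraries (log2), with 1 point per gene. Grey points are the 16046 genes tested, and coloured points the 178 genes that DESeq2 called lower, split by membership in 4 interferon-related lists, and the 42 it called higher.

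Of the 39 gene lists examined, that of interferon-stimulated effectors held the most lower calls. These are the enzymes, GTPases and RNA-binding proteins that carry out the antiviral state. All 55 members tested had a negative log2 fold change, with a median of −1.25 against 0.01 for all genes tested. Both SF3B2 siRNA libraries lay below both control siRNA libraries for 54 of the 55 (98.2%, against 19.5% of all genes), the exception being the barely expressed CXCL11. DESeq2 called 44 of the 55 lower and 0 higher, and edgeR called 0. Of all genes with an adjusted p DESeq2 called 1.20% lower and 0.284% higher. The list was drawn up with earlier results of these data known. Each control siRNA library had a median above each SF3B2 siRNA library, and the size depended on the library: the median log2 fold change was −1.06 without SF3B2 siRNA replicate 1 and −1.54 without replicate 2. It was −1.47 without control siRNA replicate 1 and −0.95 without replicate 2.

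The promoters of 4 interferon-stimulated genes are shown because their transcripts lay lower together and because the letters of the response element can be read in them. Sequences are those of RefSeq (GRCh38.p14), from 250 bases before to 50 bases after the gene start, written 5′ to 3′ on the strand of the gene. Capitals mark each match to GAAANNGAAA, a simple form of the interferon-stimulated response element, or to TTTCNNTTTC, its form on the other strand. Overlapping matches in ISG15 run into one another.
IFIT1: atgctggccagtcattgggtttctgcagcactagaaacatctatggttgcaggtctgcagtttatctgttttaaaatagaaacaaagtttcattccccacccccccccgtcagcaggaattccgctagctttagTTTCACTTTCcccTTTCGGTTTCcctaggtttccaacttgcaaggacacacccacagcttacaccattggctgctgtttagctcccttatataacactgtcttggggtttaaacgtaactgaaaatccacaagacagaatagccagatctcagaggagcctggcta
IFIT3: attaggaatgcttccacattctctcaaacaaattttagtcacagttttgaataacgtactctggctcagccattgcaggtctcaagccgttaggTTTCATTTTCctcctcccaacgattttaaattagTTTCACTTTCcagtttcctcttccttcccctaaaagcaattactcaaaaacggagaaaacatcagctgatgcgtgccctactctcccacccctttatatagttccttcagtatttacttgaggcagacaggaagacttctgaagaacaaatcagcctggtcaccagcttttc
ISG15: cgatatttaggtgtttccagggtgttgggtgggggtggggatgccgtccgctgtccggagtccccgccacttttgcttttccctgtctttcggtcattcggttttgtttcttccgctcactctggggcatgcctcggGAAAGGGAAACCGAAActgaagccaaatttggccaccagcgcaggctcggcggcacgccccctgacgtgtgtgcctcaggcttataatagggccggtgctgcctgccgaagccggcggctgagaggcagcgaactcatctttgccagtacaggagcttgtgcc
GBP1: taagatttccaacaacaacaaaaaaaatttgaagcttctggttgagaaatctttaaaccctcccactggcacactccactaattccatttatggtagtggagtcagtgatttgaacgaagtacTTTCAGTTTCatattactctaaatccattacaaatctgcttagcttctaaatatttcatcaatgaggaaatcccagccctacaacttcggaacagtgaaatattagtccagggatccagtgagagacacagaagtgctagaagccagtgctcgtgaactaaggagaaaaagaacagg

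The IFIT1 window covers chr10:89392373-89392672 on the plus strand and has matches that begin at −116 and −103 from the start. The IFIT3 window covers chr10:89327747-89328046 on the plus strand, with matches at −156 and −122. The ISG15 window covers chr1:1013247-1013546 on the plus strand, with matches at −113 and −107. The GBP1 window covers chr1:89065159-89065458 on the minus strand, with 1 match at −127. Such a match occurs in 996 of the 27305 promoters of the RefSeq set searched (3.65%). For the effectors as a list no share is given, because only 42 of the 55 had a promoter in that set (76.4%, under the 80% chosen as the minimum). Among windows not shown, that of MX1 has a match at 12. The window of TAF13, a lower gene outside the interferon-related lists, has a match at −181. The windows of RSAD2, SAMD9L and OAS1 hold no match, which says only that these letters are not in them. A match is a description of the letters, and binding was not measured.

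Among the effectors GBP1, an interferon-induced GTPase that attacks membranes of intracellular microbes, had 10.2 and 14.4 CPM with SF3B2 siRNA, against 49.7 and 75.1 CPM with control siRNA. The groups did not overlap, and the log2 fold change was −2.34 ± 0.27 (edgeR adjusted p = 0.179). RSAD2, whose product viperin makes a nucleotide that stops viral RNA synthesis, had 15.1 and 27.1 CPM with SF3B2 siRNA, against 72.5 and 123.3 CPM with control siRNA. SAMD9L, a brake on growth and on poxviruses, had 34.9 and 55.5 CPM with SF3B2 siRNA, against 175.5 and 225.7 CPM with control siRNA. The log2 fold changes of RSAD2 and SAMD9L were −2.22 ± 0.36 and −2.15 ± 0.27 (edgeR adjusted p = 0.230 and 0.186). LAMP3, a lysosomal membrane glycoprotein that interferon induces, was even within groups, at 23.1 and 24.7 CPM with SF3B2 siRNA, against 63.0 and 71.2 CPM with control siRNA. By DESeq2 the adjusted p was 7.26e-14 for GBP1, 2.63e-09 for RSAD2, 1.64e-12 for SAMD9L and 8.28e-09 for LAMP3. Over the alternatives of edgeR and DESeq2 together the adjusted p ran from 8.09e-41 to 1.00, from 2.34e-40 to 0.872, from 2.84e-40 to 1.00 and from 3.58e-18 to 1.00.

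Of the IFIT proteins, IFIT1 grips viral RNA by its 5′ end. IFIT1 had 72.9 and 119.4 CPM with SF3B2 siRNA, against 253.7 and 394.0 CPM with control siRNA. IFIT2 had 88.1 and 165.7 CPM with SF3B2 siRNA, against 317.4 and 450.9 CPM with control siRNA. IFIT3 had 67.9 and 119.4 CPM with SF3B2 siRNA, against 221.4 and 335.6 CPM with control siRNA. In all of these genes the higher SF3B2 siRNA library stayed below the lower control siRNA library, and in both groups replicate 2 was the higher. MX1, a GTPase that blocks influenza virus, had 59.0 and 78.6 CPM with SF3B2 siRNA, against 149.3 and 216.3 CPM with control siRNA. OAS1, which makes the activator of RNase L, had 140.9 and 203.9 CPM with SF3B2 siRNA, against 321.6 and 468.6 CPM with control siRNA. USP18, which strips ISG15 from proteins and dampens the receptor, had 11.5 and 13.6 CPM with SF3B2 siRNA, against 32.7 and 39.6 CPM with control siRNA. The ubiquitin-like ISG15, one of the more abundant effectors, had 484.5 and 526.0 CPM with SF3B2 siRNA, against 798.5 and 1145 CPM with control siRNA. Its log2 fold change of −0.94 ± 0.23 was smaller than those of IFIT1 (−1.75 ± 0.31) and USP18 (−1.52 ± 0.19). The smallest difference in the list was that of LGALS3BP, a secreted glycoprotein, at −0.53 ± 0.22, and it was not called by either tool. The genes DDX60L and HERC6, related to RNA helicases and to the ISG15 ligase HERC5, had log2 fold changes of −1.48 ± 0.20 and −1.32 ± 0.18.

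**Figure D3:**
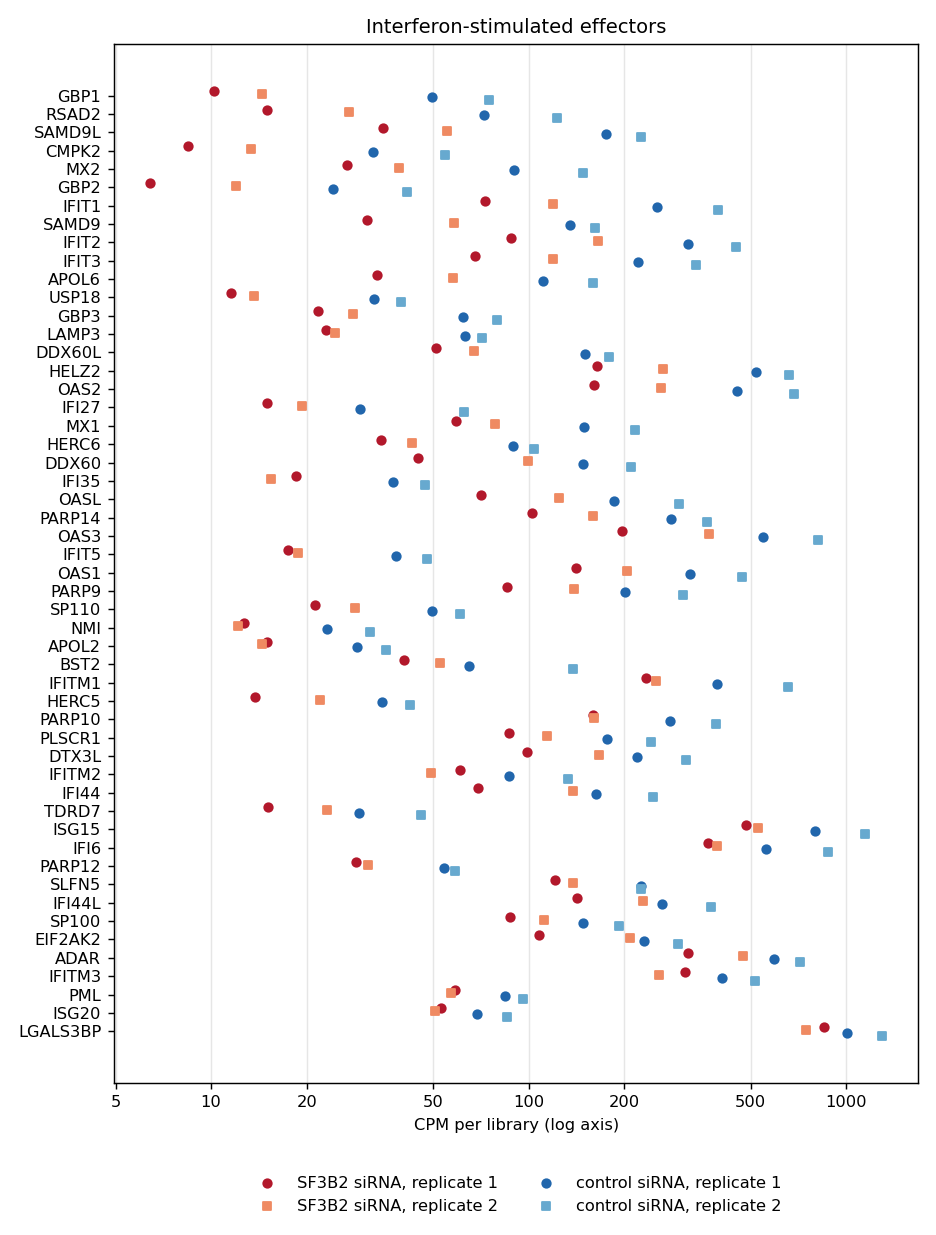
Level of the 52 interferon-stimulated effectors that reach 5 CPM in some library, in CPM on a log axis, ordered by log2 fold change with the most negative at the top. Each gene has 4 points, 1 per library, and the red SF3B2 siRNA points lie left of the blue control siRNA points in every row, from GBP1 (10.2 and 14.4 against 49.7 and 75.1 CPM) to LGALS3BP.

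The effectors also varied between replicates. On the authors' TPM, which correct for gene length, the median effector had 30.6 and 48.2 TPM in the SF3B2 siRNA libraries and 67.7 and 91.2 TPM in the control siRNA libraries. The DMSO libraries, shown beside these without a comparison, had 101.2 and 119.9 TPM. Replicate 2 held more TPM than replicate 1 for 52 of the 55 effectors with SF3B2 siRNA, for 55 with control siRNA and for 52 with DMSO.

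Upstream of the effectors, genes of 3 RNA sensors and the transcription factor genes STAT2 and IRF1 were among those that DESeq2 called lower. Of the 32 genes for RNA sensing and interferon signalling DESeq2 called 6 lower and 0 higher. Of all genes with an adjusted p it called 1.20% lower and 0.284% higher. Without overlap 16 of the 32 lay below the control (50%, against 19.5% of all genes). The median log2 fold change was −0.25. The ligand gene IFNB1 was barely expressed, with 0.232 and 0.300 TPM with SF3B2 siRNA, against 0.666 and 0.495 TPM with control siRNA. The receptor gene IFNAR1 had 67.2 and 75.7 CPM with SF3B2 siRNA, against 119.0 and 108.3 CPM with control siRNA, and was not called by either tool. DDX58, which encodes the viral RNA sensor RIG-I, had 34.7 and 54.8 CPM with SF3B2 siRNA, against 99.4 and 146.4 CPM with control siRNA. IFIH1, which encodes the sensor MDA5, and the endosomal sensor gene TLR3 had log2 fold changes of −1.35 ± 0.31 and −1.76 ± 0.40. STAT2, which carries the interferon signal to the nucleus, had 188.7 and 238.0 CPM with SF3B2 siRNA, against 405.1 and 526.3 CPM with control siRNA. Its partner IRF9 overlapped between groups, at 100.2 and 118.6 CPM with SF3B2 siRNA, against 101.6 and 131.3 CPM with control siRNA. The transcription factor gene IRF1 had a log2 fold change of −1.16 ± 0.18 and was called by DESeq2. The kinase genes TYK2 and TBK1 and the adaptor gene STING1 had log2 fold changes of −0.01 ± 0.16, −0.24 ± 0.17 and −0.13 ± 0.21, and none was called.

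Genes that display antigen and TRIM restriction factors followed the same direction. Of 20 genes of MHC class I and antigen processing all had negative log2 fold changes (median −0.68). Without overlap 16 lay below the control (80%, against 19.5% of all genes). DESeq2 called 7 lower, where it called 1.2% of all genes with an adjusted p lower. The peptide transporter gene TAP1 had 67.6 and 67.2 CPM with SF3B2 siRNA, against 143.4 and 193.0 CPM with control siRNA. PSMB9, a subunit of the immunoproteasome, had 4.98 and 4.61 CPM with SF3B2 siRNA, against 11.4 and 22.4 CPM with control siRNA. NLRC5, the transactivator of MHC class I genes, had a log2 fold change of −1.58 ± 0.24. Of the 8 TRIM genes tested all lay below the control without overlap (100%, against 19.5% of all genes) and DESeq2 called 4. TRIM22 had 4.23 and 6.59 CPM with SF3B2 siRNA, against 19.7 and 38.2 CPM with control siRNA, and TRIM5, which blocks retroviral capsids, had 25.2 and 24.2 CPM with SF3B2 siRNA, against 51.1 and 55.7 CPM with control siRNA. Over these 4 lists together 115 genes were tested and DESeq2 called 61 lower, which is 53.04% of the lists and 34.3% of all 178 lower calls, and 0 higher. Without SF3B2 siRNA replicate 1 or 2 DESeq2 called 51 and 57 of these 61, and without control siRNA replicate 1 or 2 it called 38 and 5. Markers of leukocytes, which also express many of these genes, summed to 90.8 and 90.9 TPM with SF3B2 siRNA, against 128.7 and 123.8 TPM with control siRNA, nearly all from the lysosomal gene CD68, and PTPRC was not listed. The other 3 leukocyte markers listed, CD14, LYZ and CD79A, had log2 fold changes of 0.16 ± 0.45, 0.53 ± 0.26 and 0.42 ± 0.50, and none of the 4 was called. All libraries are labelled as PC3 cells and no leukocytes are named, so these values are no measure of leukocyte number. Whether other cells were present was not tested.

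Outside the interferon-related lists DESeq2 called 117 genes lower, and 106 of all 178 lower genes were in none of the 39 lists. PRSS35, a secreted protein related to serine proteases, had 0.918 and 1.13 CPM with SF3B2 siRNA, against 6.21 and 5.43 CPM with control siRNA. TAF13, which belongs to TFIID, a general transcription factor, had 6.23 and 5.80 CPM with SF3B2 siRNA, against 21.8 and 18.4 CPM with control siRNA. SARAF, an endoplasmic reticulum protein that shuts off calcium entry after store refilling, had 83.1 and 65.7 CPM with SF3B2 siRNA, against 244.4 and 195.5 CPM with control siRNA. TMEM30A, the partner subunit of lipid flippases, had 34.1 and 42.7 CPM with SF3B2 siRNA, against 107.8 and 99.8 CPM with control siRNA. In each of these 4 genes the groups did not overlap, and the mean was 5.69-, 3.34-, 2.96- and 2.70-fold lower with SF3B2 siRNA. Their log2 fold changes were −2.51 ± 0.27, −1.74 ± 0.19, −1.56 ± 0.20 and −1.44 ± 0.18, with edgeR adjusted p of 0.175, 0.175, 0.206 and 0.186. By DESeq2 their adjusted p was 7.21e-10, 2.70e-09, 1.01e-08 and 1.23e-07. Over the alternatives of edgeR and DESeq2 together the adjusted p ran from 2.84e-17 to 0.320, from 7.14e-18 to 0.321, from 6.85e-22 to 0.872 and from 5.42e-18 to 1.00. TAF13 was the only one of 17 TFIID genes called, and the other 16 had log2 fold changes between −0.36 and 0.26.

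Other genes that DESeq2 called lower are given singly. LRPAP1, a chaperone of lipoprotein receptors in the endoplasmic reticulum, had 31.8 and 23.7 CPM with SF3B2 siRNA, against 65.3 and 67.9 CPM with control siRNA. All 34 sterol and fatty acid synthesis genes tested lay lower, with a median log2 fold change of −0.22. Of them 17 lay below the control without overlap (50%, against 19.5% of all genes). DESeq2 called 1 and edgeR 0, and the median was −0.41 and −0.12 when SF3B2 siRNA replicate 1 or 2 was left out, and −0.13 when control siRNA replicate 1 was left out. ADAM17, the sheddase that releases TNF and EGFR ligands, had 36.9 and 42.5 CPM with SF3B2 siRNA, against 85.9 and 77.3 CPM with control siRNA. SDHD, a membrane anchor of respiratory complex II, had 30.9 and 32.4 CPM with SF3B2 siRNA, against 60.7 and 57.1 CPM with control siRNA. It was the only one of 75 nuclear-encoded oxidative phosphorylation genes called, and 64 of the 75 lay higher, with a list median of 0.14 that was −0.06 without SF3B2 siRNA replicate 1 and 0.32 without its replicate 2. PSMD5, a chaperone of proteasome assembly, had a log2 fold change of −0.78 ± 0.16 and was the only one of 34 proteasome genes called. The ubiquitin ligase gene RNFT1 had 10.65 and 11.04 CPM with SF3B2 siRNA, against 25.1 and 23.2 CPM with control siRNA. IFI16, a sensor of DNA in the nucleus that stood in none of the lists, had 33.5 and 33.7 CPM with SF3B2 siRNA, against 79.5 and 85.7 CPM with control siRNA. DESeq2 kept 84 and 94 of the 117 calls without SF3B2 siRNA replicate 1 or 2, and 12 and 7 without control siRNA replicate 1 or 2.

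DESeq2 called fewer genes higher than lower with SF3B2 siRNA, and 37 of the 42 higher ones were in none of the lists. LINC00261, a lncRNA gene beside FOXA2, had 55.6 and 52.4 CPM with SF3B2 siRNA, against 15.7 and 17.5 CPM with control siRNA. Its libraries were even within groups, and the log2 fold change was 1.71 ± 0.16 (edgeR adjusted p = 0.175, and adjusted p = 2.04e-11 by DESeq2). Over the alternatives of edgeR and DESeq2 together the adjusted p ran from 9.40e-23 to 0.872. MMP1, which cleaves fibrillar collagen, had 66.2 and 49.6 CPM with SF3B2 siRNA, against 25.9 and 15.5 CPM with control siRNA. MMP13, a collagenase of the same cluster on chromosome 11, went the other way, with 12.8 and 11.7 CPM with SF3B2 siRNA, against 32.1 and 25.3 CPM with control siRNA. HEPHL1, a copper enzyme that oxidises iron, had 4.93 and 6.41 CPM with SF3B2 siRNA, against 1.40 and 1.89 CPM with control siRNA. FKBP7, a prolyl isomerase of the endoplasmic reticulum, had 11.6 and 10.4 CPM with SF3B2 siRNA, against 4.003 and 4.633 CPM with control siRNA. BCAM, a laminin receptor, had 115.2 and 86.4 CPM with SF3B2 siRNA, against 39.4 and 52.3 CPM with control siRNA. NUDT8, a mitochondrial hydrolase gene, was uneven, with 60.9 and 23.0 CPM with SF3B2 siRNA, against 11.95 and 10.72 CPM with control siRNA. Its log2 fold change was 1.89 ± 0.43, with replicate 1 of SF3B2 siRNA well above replicate 2.

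Of the remaining higher genes, BIRC5 encodes survivin, an inhibitor of apoptosis needed in mitosis, and had 16.02 and 17.30 CPM with SF3B2 siRNA, against 8.70 and 7.77 CPM with control siRNA. BMF, a BH3-only protein that promotes apoptosis, had 96.0 and 93.7 CPM with SF3B2 siRNA, against 54.9 and 56.5 CPM with control siRNA. These were the 2 of 31 BCL2 family and apoptosis genes that were called. HSPA6, a stress-inducible HSP70 gene, had 237.5 and 353.3 CPM with SF3B2 siRNA, against 140.3 and 183.3 CPM with control siRNA, while HSPA13 had 73.5 and 57.3 CPM with SF3B2 siRNA, against 153.9 and 109.1 CPM with control siRNA. RBM24, an RNA-binding regulator of muscle splicing, ADGRB1, an adhesion receptor, and SLC26A5, the motor protein of outer hair cells, had log2 fold changes of 1.37 ± 0.24, 1.34 ± 0.23 and 1.12 ± 0.21. PTPMT1, a mitochondrial phosphatase of cardiolipin synthesis, and C17orf49, a chromatin-associated protein, had 1.12 ± 0.22 and 1.32 ± 0.26. The uncharacterised LOC100130744 had 42 and 75 reads with SF3B2 siRNA, against 2 and 1 with control siRNA, 38.2 times as many. An exact 95% interval, for counting error alone, ran from 12.7 to 188. The gene passed the filter on low counts only through its SF3B2 siRNA reads, and its control reads lie near the floor of 1. It was picked after its values were seen, so the interval lends the difference no support. DESeq2 kept 25 and 32 of the 42 calls without SF3B2 siRNA replicate 1 or 2, and 3 and 5 without control siRNA replicate 1 or 2.

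**Figure D4:**
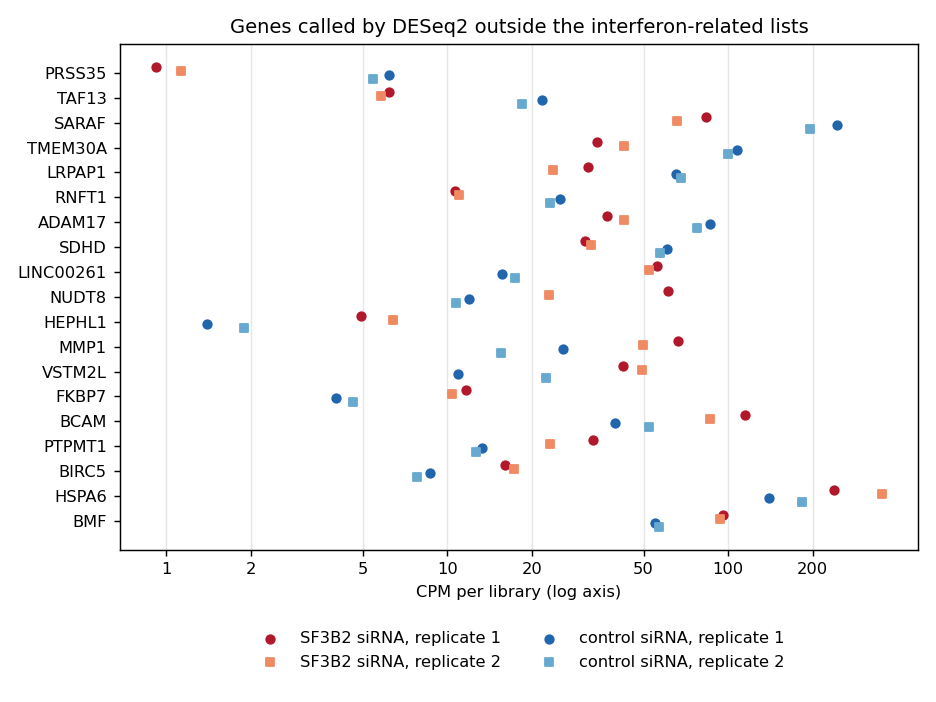
Level of 19 genes that DESeq2 called outside the interferon-related lists, in CPM on a log axis with 1 point per library, lower genes in the upper rows and higher genes from LINC00261 down. In every row the SF3B2 siRNA points (red) lie on one side of the control siRNA points (blue), with wide gaps for PRSS35, TAF13, SARAF, TMEM30A and LINC00261.

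Other groups shifted by small amounts with few or no calls, and the libraries set their size. All 79 cytosolic ribosomal protein genes lay higher, with a median of 0.42, and 49 lay above the control without overlap (62.0%, against 19.7% of all genes), but 0 were called by edgeR or DESeq2. Leaving out SF3B2 siRNA replicate 1 or 2 gave a median of 0.16 or 0.64, and leaving out control siRNA replicate 1 or 2 gave 0.55 or 0.29. RPSA, a protein of the small subunit, had 906.4 and 639.7 CPM with SF3B2 siRNA, against 592.5 and 440.4 CPM with control siRNA. Of 64 mitotic genes 31 lay above the control without overlap (48.4%) and 0 below, with BIRC5 the only one called. The proliferation marker gene MKI67 had 8.77 and 19.8 CPM with SF3B2 siRNA, against 5.60 and 7.58 CPM with control siRNA. The mitotic median of 0.27 was 0.46 without SF3B2 siRNA replicate 1 and 0.11 without replicate 2.

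Among groups that lay lower, 43 of 45 ATF4 targets and tRNA synthetase genes had negative values (median −0.40). DESeq2 called 2 of them lower, where it called 1.20% of all genes with an adjusted p lower. ASNS, which makes asparagine, had 64.7 and 26.2 CPM with SF3B2 siRNA, against 156.2 and 87.8 CPM with control siRNA, and the cystine transporter gene SLC7A11 had 54.3 and 28.5 CPM with SF3B2 siRNA, against 129.4 and 61.8 CPM with control siRNA. For both genes replicate 1 was above replicate 2 in each group, and the groups did not overlap. The ATF4 median became −0.67 or −0.12 when SF3B2 siRNA replicate 1 or 2 was left out, and −0.19 or −0.53 when control siRNA replicate 1 or 2 was left out. For 34 endoplasmic reticulum chaperone genes the median of −0.34 was −0.63, −0.02, −0.05 and −0.50 in the same order, and 0 were called. Canonical histone genes, most of which have no introns, had a median of −0.30 over 48 genes. Of these 25 lay below the control without overlap (52.1%, against 19.5% of all genes), and 0 were called. H2BC4, a gene of histone H2B, had 51.9 and 56.8 CPM with SF3B2 siRNA, against 82.2 and 75.7 CPM with control siRNA. Of 27 NF-kB targets and cytokine genes 15 lay below the control without overlap (55.6%, against 19.5% of all genes) and 0 were called. The chemokine gene CXCL1 had 3.69 and 3.30 CPM with SF3B2 siRNA, against 6.45 and 5.48 CPM with control siRNA. Of 21 nonsense-mediated decay genes 9 lay below without overlap (42.9%, against 19.5% of all genes). Their median was −0.11, with UPF1 at −0.36 ± 0.16, and 0 were called. The 13 mitochondrially encoded mRNAs, which are not spliced, had a median of −0.18, and none had groups that did not overlap. That median turned to 0.06 without SF3B2 siRNA replicate 2 and also without control siRNA replicate 1, and was −0.52 without SF3B2 siRNA replicate 1 and −0.38 without control siRNA replicate 2.

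**Figure D5:**
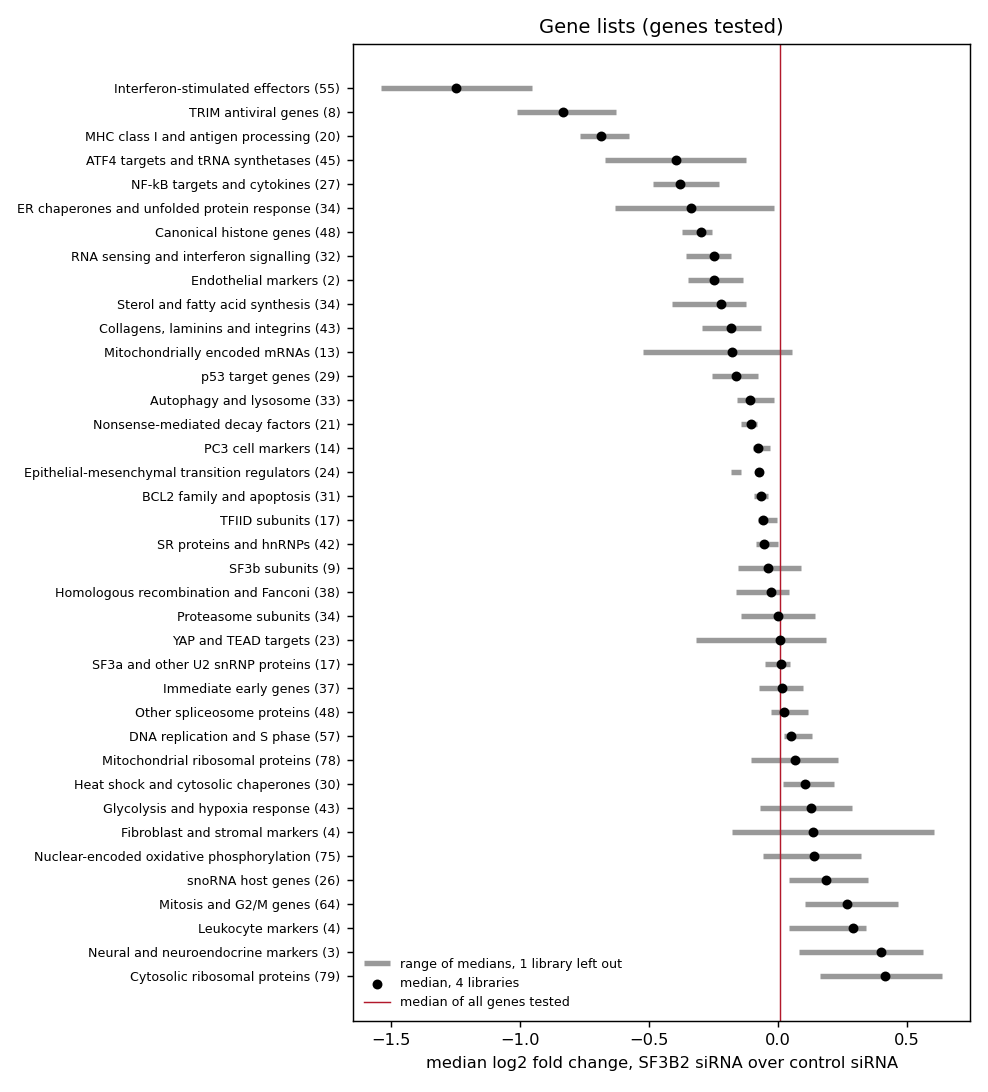
Median log2 fold change of SF3B2 siRNA over control siRNA in each gene list shown (points, with the number of genes tested in brackets), the range of that median when 1 of the 4 libraries is left out (grey bars) and the median of all genes tested (red line). The interferon-stimulated effectors lie at −1.25 and the cytosolic ribosomal proteins at 0.42.

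Because SF3b acts on introns, protein-coding genes were also grouped by their number of annotated exons. The median log2 fold change was 0.02 for 335 genes with 1 exon, 0.04 for 2442 genes with 2 to 4 exons, and 0.03 for 4032 genes with 5 to 9 exons. It was −0.02 for 4061 genes with 10 to 19 exons and −0.08 for 1962 genes with 20 or more. For the last class the median became 0.04 or −0.25 once SF3B2 siRNA replicate 1 or 2 was dropped, and −0.13 or −0.05 once control siRNA replicate 1 or 2 was dropped, so its sign rested on SF3B2 siRNA replicate 1. The genes that DESeq2 called lower had a median of 9 exons, those called higher 7, and all protein-coding genes tested 9. Splicing itself is not seen in counts per gene.

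Several genes named here overlap exons of other annotated genes, and the strand setting of the authors' counting is not stated in the labels. On the same strand this holds for IFIT2, DDX58, TAP2, PSMB9, TRIM22, TRIM5, SDHD, ASNS, RNFT1, PTPMT1, C17orf49, RPSA, DDX46 and CD68. It also holds there for CEACAM5, CEACAM6 and UBA7. RSAD2 and CMPK2 overlap each other on opposite strands, as do PSMB8 and PSMB9. A gene on the opposite strand also overlaps SF3B2, MX1, OAS1, ISG15, IFIT3, IRF1, IFI16, TAP1, SARAF, ADAM17, MMP1, BMF, SLC26A5, SLC7A11, RBM24 and H2BC4. The same is true of SAMHD1, ZNFX1 and IL6ST. Levels of ribosomal protein, histone, HLA, IFITM and HSP70 genes can include reads of near-identical copies.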

How the data were processed

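RNA-seq of PC3 cells was analysed from 1 deposited table. For each gene and library the authors deposited raw read counts in whole numbers, and TPM beside them. The authors' deposited comparison is a score (the fold, written as minus its inverse where expression was lower) with p-values, raw and Benjamini-Hochberg adjusted per the file headers; the test behind them is not named. The submitters' processing notes name Trimmomatic 0.38, HISAT2 2.10, edgeR and Bowtie2 2.3.5.1 together with the build GRCh38, without saying what each was used for. Which program counted reads, on which annotation and strand, is not stated there. The table holds only genes with at least 1 read in every library, and 16 further columns of per-sample values were not used.

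The main test was edgeR's quasi-likelihood F-test (edgeR 4.0.16, R 4.3.3) on counts of the 4 siRNA libraries, with TMM scaling, robust estimation and filterByExpr at a minimum count of 10. The fit had 2 residual degrees of freedom, no covariates and two-sided tests, with Benjamini-Hochberg adjustment over 16046 genes at 0.05. The biological coefficient of variation was 0.187. DESeq2 1.42.0 was run on the same libraries and genes as an alternative, and gave 14801 genes an adjusted p. Both tests were run on simulated data with the same dispersion for all genes and no shared difference between replicates 1 and 2. Such data cannot decide between the calls of the tools here. With 2 libraries a group an exact permutation test of a single value cannot go below p = 0.333, and none was run. Replicates differed in each group, by a median absolute log2 ratio of 0.28 with SF3B2 siRNA and 0.15 with control siRNA. Identifiers matched RefSeq for 16758 of the 17010 genes and GENCODE release 44 for 15525, which gave positions and exons, counted from 1.

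The comparison, the 39 gene lists and the tests were chosen with earlier results of these data known, so lists are described by counts and medians with no test of their own. Named genes were the subunits of SF3b and SF3a, the genes called, the 12 higher and 12 lower genes with the smallest edgeR p at 5 CPM or more and groups that do not overlap, up to 4 members per list with the largest log2 fold change, and the first 10 calls of DESeq2. IFIT1, IFIT2, IFIT3, MX1, OAS1, ISG15, STAT2, LGALS3BP, CXCL11, LRPAP1, ADAM17, RNFT1, NUDT8, IFNAR1, IFNB1, IRF9, TYK2, TBK1, STING1, LOC100130744 and the genes of the closing observations were chosen after their values were seen. Alternatives changed the scaling, the filter, the robust setting, the tool, the libraries in the fit and the replicate block. Those of DESeq2 without a library, with all 8 libraries, with the block and without the filter were added after seeing the data. Some genes are not reported here. Intervals of read ratios cover counting error only.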

Additional observations from a re-analysis of the deposited data

How the results depend on the processing

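With RLE scaling, library-size scaling alone, no filter, a stricter filter of 50 counts in 2 libraries or no robust estimation, edgeR called 1 gene each time, SF3B2. With all 8 libraries in 1 fit edgeR called 0 genes, with 638 at an unadjusted p under 0.05, and DESeq2 called 34, with SF3B2 at a log2 fold change of −2.78 and adjusted p = 0.0513 by edgeR. On the 4 libraries DESeq2 called 220 genes, and 221 without the filter. Leaving out 1 library gave 45 to 1133 genes by edgeR and 19 to 972 by DESeq2, and an interferon effector median from −1.54 to −0.95. SF3B2 kept its edgeR call in each of these 4 fits, with a log2 fold change from −2.93 to −2.64. With the replicate number as a block edgeR called 1402 genes, 853 lower and 549 higher, and DESeq2 713, with an interferon effector median of −1.24. The labels give no shared culture or day behind these numbers, and differences between replicates 1 and 2 correlated across 13930 genes at r = 0.537 between the groups, with only 2 pairs. The cause of these differences was not tested. Of the 166 genes that the naming rule gave, none that was called changed direction under an alternative, but uncalled ones did. The sign turned for 6 and 6 of them without SF3B2 siRNA replicate 1 or 2, for 8 and 4 without control siRNA replicate 1 or 2, and for 1 each with library-size scaling and the stricter filter. Depth, at 48246180 counts or more per library, limits mainly genes of few reads.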

Other observations

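Some lower genes outside the lists are also known as interferon-induced, and they were picked here after their values were seen. SAMHD1, which empties the nucleotide pool that retroviruses need, had 128.2 and 162.8 CPM with SF3B2 siRNA, against 317.6 and 367.0 CPM with control siRNA. PNPT1, a mitochondrial exoribonuclease, had 36.3 and 42.9 CPM with SF3B2 siRNA, against 84.1 and 98.8 CPM with control siRNA. ZNFX1, a helicase-like sensor of viral RNA, had 99.2 and 143.4 CPM with SF3B2 siRNA, against 234.9 and 268.5 CPM with control siRNA. UBA7 and UBE2L6, which load ISG15 onto proteins, had log2 fold changes of −0.83 and −0.86, and DESeq2 called both lower.

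Another 4 genes that DESeq2 called lower were picked after their values were seen, and stand for no group. CEACAM6 had 26.3 and 28.4 CPM with SF3B2 siRNA, against 53.3 and 50.4 CPM with control siRNA, and CEACAM5 had 43.0 and 53.3 CPM with SF3B2 siRNA, against 88.3 and 88.6 CPM with control siRNA. SERPINE2, an inhibitor of thrombin and urokinase, had 222.9 and 229.4 CPM with SF3B2 siRNA, against 440.5 and 407.1 CPM with control siRNA. IL6ST, the shared receptor chain of the IL-6 family, had 35.4 and 57.4 CPM with SF3B2 siRNA, against 96.3 and 107.2 CPM with control siRNA. CEACAM5 and CEACAM6 are close paralogs, so reads can be split between them.

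The authors' deposited table gave 14 genes an adjusted p under 0.05, 10 lower and 4 higher, and all 14 were among the 220 that DESeq2 called here. The signed fold in the authors' deposited table was −6.86 for SF3B2, −5.69 for PRSS35, −3.34 for TAF13 and 3.26 for LINC00261.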
